A study of Schmidtea mediterranea with 15 samples.

Results

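The records described here are the 43 entries of the count table whose identifiers start with BK, out of 92053 sequence records in all. The BK prefix belongs to third-party annotation, public database entries in which sequence is annotated by someone other than the group that first produced it. They were taken by identifier alone, with no filter on measured values, though with earlier results of these data known. Of the other records, 91522 belonged to 1 transcriptome assembly (identifiers starting with GDAG) and 488 had identifiers of other kinds. Transcript levels come from sequencing of poly(A) RNA of Schmidtea mediterranea of the sexual S2F2 biotype, with 3 libraries in each of 5 groups. Trunk fragments were taken at day 0 and, while regenerating, at days 3, 5 and 7, and the fifth group was whole, intact juvenile animals. No treatment other than cutting is named, and nothing in the labels ties the replicates to separate animals or pools, so the p-values measure the spread between these libraries, which may be technical in part. Juveniles and day 0 fragments differed both in body part and in stage, and these cannot be told apart.

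Planarians replace lost body parts from neoblasts, dividing stem cells spread through the body, and remodel the tissue that remains. A trunk fragment has to rebuild both a head and a tail. Animals of the sexual biotype are hermaphrodites that grow gonads and accessory organs as they mature, and these organs regress and regrow with body size and injury. The files do not pair the BK identifiers with gene names, so no role is given to any of them and they are described by identifier, in the order of their accession numbers. The labelled tissues could not be checked against marker genes for the same reason.

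Total counts ran from 20338464 to 59034917 per library. The BK records together held 10390 to 77507 counts, between 0.0322% and 0.224% of a library. This share averaged 0.137% ± 0.0753 at day 0 and 0.0405% ± 0.000742 in juveniles (SD, n = 3); without BK007100.1, BK007101.1 and BK007103.1 it was 0.0275% ± 0.000597 and 0.038% ± 0.000202. The libraries of a trunk group were not alike: on the first principal component of log2 CPM (counts relative to the scaled size of the library) the third day 0 library had a score of -178, its 2 fellows -105 and -106. The third day 3 library scored -95.3, its fellows -11.4 and -16.1, and the day 7 libraries scored 51.5, 123 and 1.34. A fit without 3 libraries that stood apart (replicate 3 of days 0 and 3, replicate 2 of day 7) was chosen after the levels were seen, and its values are given for the steepest records. Day 7 replicate 3 (1.34) also lay apart from replicate 1 (51.5), on the other side, and was kept, so another choice was possible. For BK007100.1, BK007101.1, BK007103.1 and BK007034.1 the fit drops the highest day 0 and day 3 libraries and the lowest day 7 library. This narrows their spread, so its calls are not separate support. In bulk RNA, fewer cells of a type and less RNA per cell cannot be told apart.

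The accession numbers formed 3 unbroken runs: a pair (BK006294.1 and BK006295.1), a run of 37 (BK007007.1 to BK007043.1) and a run of 4 (BK007100.1 to BK007103.1). Mean levels over the 15 libraries ran from 0.142 CPM (BK007011.1, 83 counts in all) to 224 CPM (BK007100.1, 121382 counts), with a median of 4.34 CPM, against 1.02 CPM over all tested records. The 3 most abundant were BK007100.1, BK007103.1 and BK007101.1, at 224, 115 and 110 CPM, followed by BK007043.1 at 69.7 CPM. These levels are not corrected for length and do not rank the transcripts by molecules. All but 1 of the 43, BK007019.1 with 103 counts, had enough counts to be tested. The median within-group SD of log2 CPM was 0.163 for the BK records and 0.251 over all tested records.

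For 25 of the 42 tested BK records, the highest group mean was under 1.5 times the lowest, and BK007018.1, at 4.97 to 5.47 CPM, had the smallest ratio, 1.1. For 7 records the ratio was above 4, namely BK007007.1, BK007011.1, BK007032.1, BK007034.1, BK007100.1, BK007101.1 and BK007103.1. Of the 42, 21 had their highest group mean in juveniles and 12 in day 0 fragments. The regenerates held the highest mean for 7 records at day 7, 2 at day 3 and 0 at day 5. Neither this ratio nor the group with the highest mean was counted over all tested records, so neither is read as particular to BK records.

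**Figure D1:**
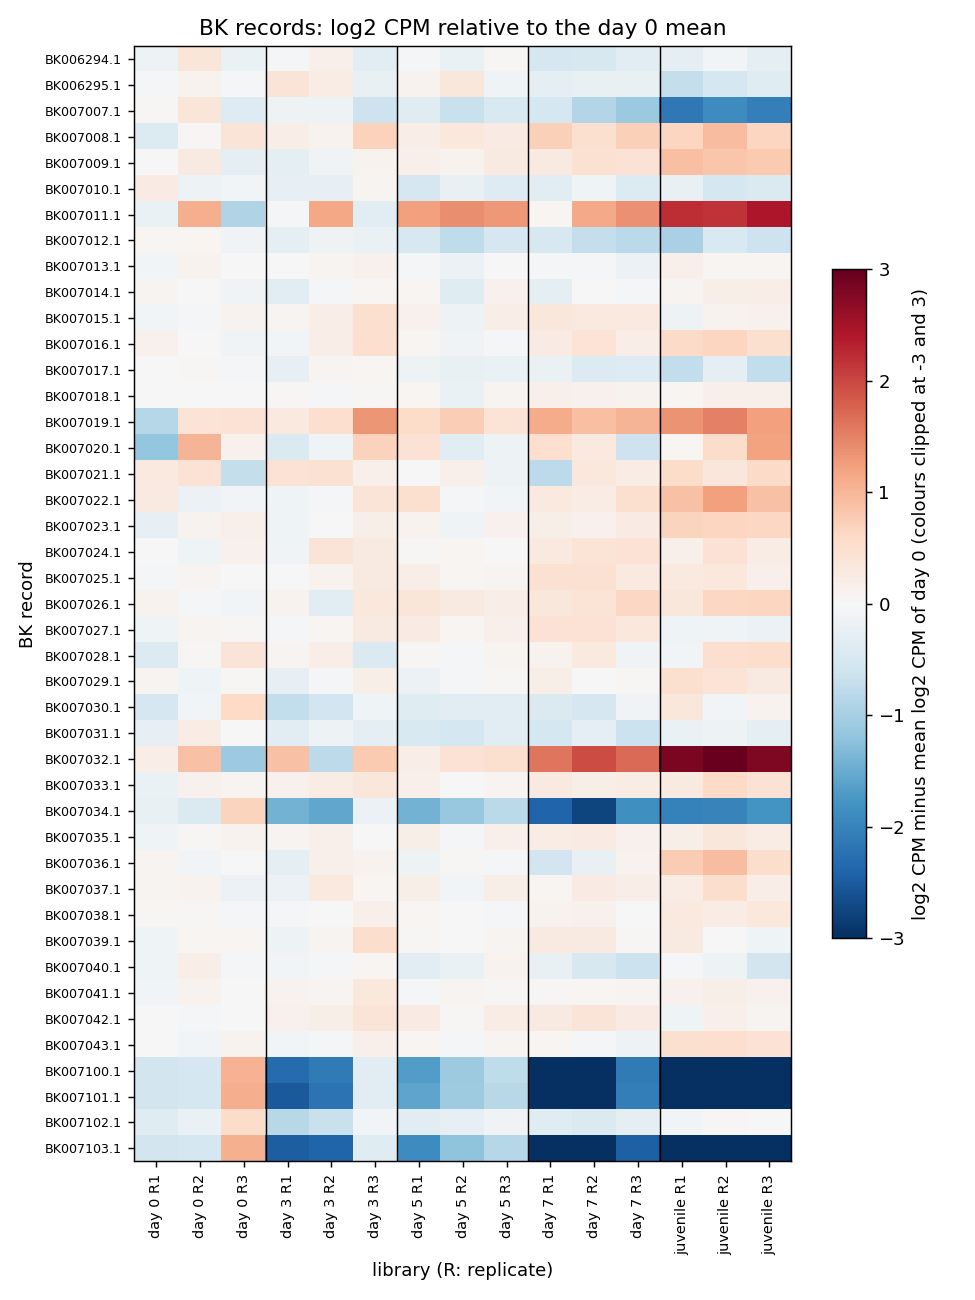
Log2 CPM of the 43 BK records (rows, in accession order) in the 15 libraries (columns, R for replicate), minus the record's mean log2 CPM over the 3 day 0 libraries, with colours clipped at -3 and 3. Most rows are pale, while BK007100.1, BK007101.1 and BK007103.1 are dark blue in juveniles and BK007032.1 is dark red there.

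Many BK records had a close copy in the table. The 12 with a mean above 10 CPM were compared with all records outside the BK set. Of the 12, 10 had at least 1 such record whose count lay within 10% of theirs in every library. The exceptions were BK007013.1 and BK007015.1. Rows identical to another row in all libraries numbered 5: BK007009.1, BK007021.1, BK007022.1, BK007038.1 and the untested BK007019.1. For BK007100.1 the closest assembly record differed by at most 0.218% in any library, and for BK007103.1 by at most 9.52%. The sources used here do not say how reads that match near-identical records were counted. The count of a BK record may be only part of the reads of its gene, or may hold reads also counted at its copy. Which of these held was not tested.

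Calls were made with edgeR's quasi-likelihood test in 1 fit of all libraries, at a threshold of 0.05 on the p-value adjusted over the 46736 records tested. An F test over the 4 trunk groups called 6 of the 42 BK records, BK007007.1, BK007012.1, BK007025.1, BK007027.1, BK007032.1 and BK007034.1, and 14.3% of all tested records. BK007012.1 had the smallest adjusted p (0.011) and was the only one of the 6 that was called whichever library was left out. Leaving out day 7 replicate 1 reduced the calls to 2 (9.03% of all tested records were then called), and leaving out day 7 replicate 2 reduced them to 1 (9.01%). The likelihood ratio test of DESeq2 over the same groups called 10, and 20.3% of all tested records.

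The largest differences were in the run of 4. BK007100.1 stood at 354, 365 and 1070 CPM in day 0 replicates 1, 2 and 3, at 104, 119 and 417 CPM at day 3, at 163, 242 and 303 CPM at day 5, at 49.5, 11.5 and 119 CPM at day 7, and at 16.2, 11.3 and 18.7 CPM in juveniles. Every day 0 library lay above every day 7 and juvenile library, the day 5 libraries lay between, and day 3 overlapped day 0 through replicate 3 alone. The other 2 steep records followed it: BK007101.1 went from 297 ± 211 CPM at day 0 through 102 ± 90.1 at day 3, 117 ± 29.2 at day 5 and 29.6 ± 28.5 at day 7 to 4.46 ± 1.53 in juveniles (SD, n = 3). BK007103.1 went from 324 ± 229 through 106 ± 94.4, 117 ± 39.9 and 24.9 ± 24.2 to 2.58 ± 1.03 CPM. The day 7 libraries were far apart, with a highest library 10.4, 12 and 13.7 times the lowest for BK007100.1, BK007101.1 and BK007103.1.

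In juveniles all 3 fell relative to day 0, with log2 fold changes of -5.28 (SE 0.97, edgeR adjusted p = 0.002) for BK007100.1, -6.07 (SE 1.07, edgeR adjusted p = 0.0017) for BK007101.1 and -6.99 (SE 1.16, edgeR adjusted p = 0.0012) for BK007103.1. These calls held whichever library was left out, but the size leaned on day 0 replicate 3: without it the values were -4.55, -5.32 and -6.25, and without the 3 libraries that stood apart -4.57, -5.34 and -6.27. At day 7 the log2 fold changes against day 0 were -3.31, -3.33 and -3.7 (edgeR adjusted p = 0.02, 0.025 and 0.019). Single libraries moved these values. Without day 0 replicate 3 they were -2.58, -2.57 and -2.95 and did not pass (edgeR adjusted p = 0.076, 0.091 and 0.067), and without day 7 replicate 1 they were -3.16, -3.13 and -3.52 and did not pass (0.079, 0.091 and 0.076). Without day 7 replicate 2 they were -2.79, -2.79 and -3.15, and BK007101.1 alone did not pass (edgeR adjusted p = 0.046, 0.055 and 0.043). Without day 7 replicate 3 they were -4.29, -4.41 and -4.79, and all passed (edgeR adjusted p = 0.015, 0.016 and 0.015). DESeq2 called all 3 (adjusted p = 4.6e-05, 0.00011 and 2.9e-05). With the 3 libraries that stood apart left out together the log2 fold changes were -2.1, -2.08 and -2.44, and all 3 records were called (edgeR adjusted p = 0.02, 0.025 and 0.017). At days 3 and 5 the fold changes against day 0 lay between -1.34 and -1.61 on the log2 scale, and none of the 3 records passed (edgeR adjusted p from 0.27 to 0.37). The day 3 values were -2.42, -2.58 and -2.65 without day 3 replicate 3 and -0.76, -0.79 and -0.86 without day 0 replicate 3, and the day 5 values without day 0 replicate 3 were -0.61, -0.59 and -0.72; none passed. With the 3 libraries that stood apart left out the day 3 values were -1.7, -1.83 and -1.91 (edgeR adjusted p = 0.055, 0.052 and 0.053) and the day 5 values -0.62, -0.59 and -0.72.

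The proportions of the 3 steep records within a library were lower in juveniles than in trunks. The count of BK007101.1 was 0.493 ± 0.00874 times that of BK007100.1 in day 0 fragments (SD, n = 3). In regenerates it was 0.462 ± 0.032 (day 3), 0.501 ± 0.027 (day 5) and 0.47 ± 0.0361 (day 7), and juveniles had 0.284 ± 0.0322. The ratio of BK007103.1 to BK007100.1 was 0.538 ± 0.00902, 0.481 ± 0.0355, 0.491 ± 0.0256 and 0.384 ± 0.0542 at days 0, 3, 5 and 7, and 0.163 ± 0.0278 in juveniles. Every juvenile library lay below every trunk library in both ratios. These ratios do not depend on library size, but each is set by transcript length as well as abundance, so only their differences between libraries are read, and they were not tested because they were picked after the values had been seen.

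**Figure D2:**
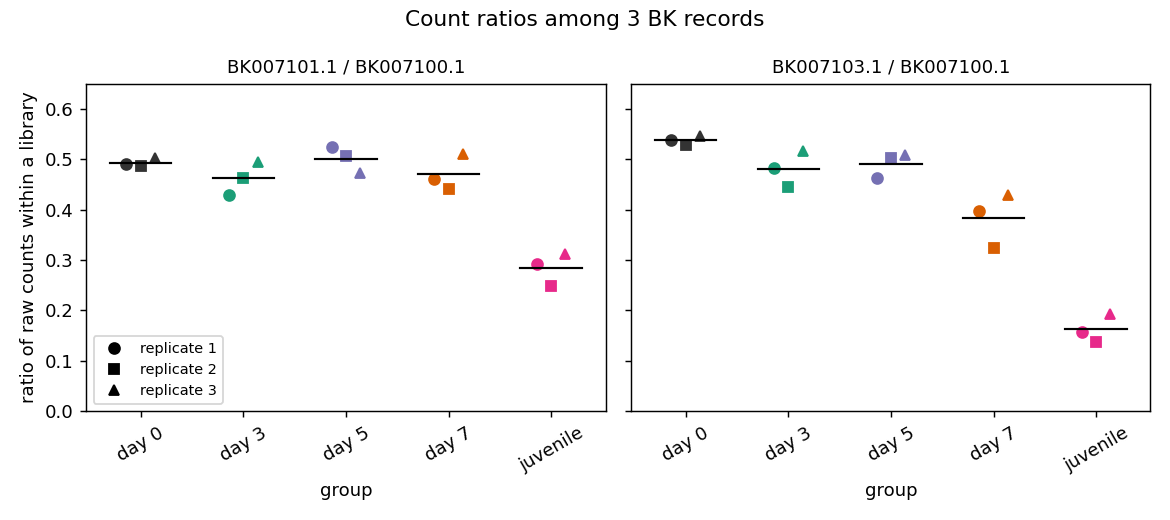
Raw count of BK007101.1 (left) and BK007103.1 (right) divided by that of BK007100.1 in the same library, by group. Points are libraries, shaped by replicate number, and lines are group means; juveniles lie at 0.249 to 0.312 on the left and at 0.138 to 0.193 on the right, below all trunk libraries.

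BK007102.1, the remaining record of the run, did not share the steep fall to juveniles. It was at 8.57, 9.58 and 16.0 CPM at day 0 and 6.13, 6.92 and 10.3 CPM at day 3. Its day 5 levels were 8.73, 9.27 and 10.2 CPM, and its day 7 levels 8.49, 8.07 and 9.08 CPM. Juveniles had 10.3, 11.3 and 10.8 CPM, a difference from day 0 of -0.08 in log2 units (SE 0.22, edgeR adjusted p = 0.83). At day 3 its log2 fold change against day 0 was -0.56 and did not pass (edgeR adjusted p = 0.13). It was highest in day 0 replicate 3 and lowest in day 3 replicate 1, at 6.13 CPM.

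**Figure D3:**
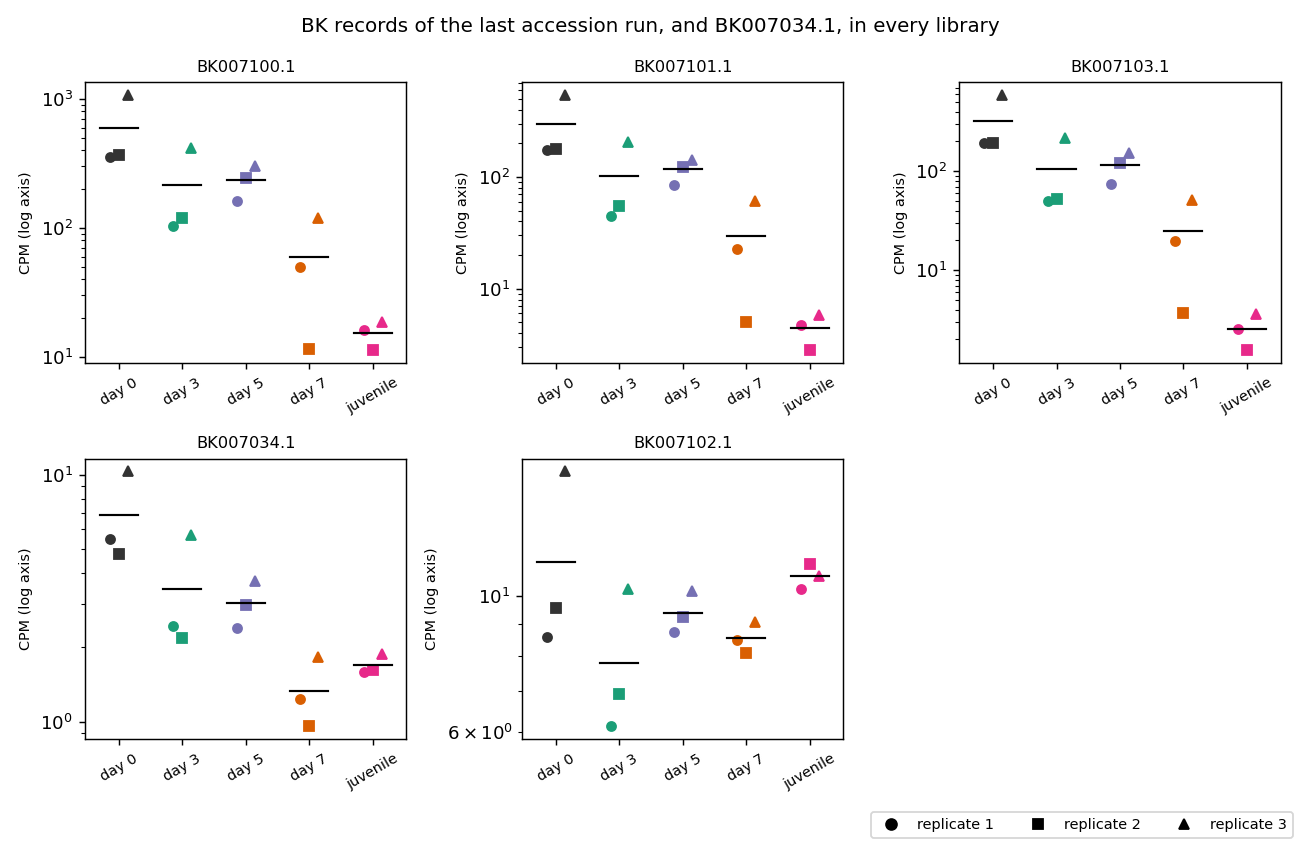
CPM on a log axis of the 4 records of the last accession run and of BK007034.1, by group. Points are libraries, shaped by replicate number, and lines are arithmetic group means; replicate 3 is the highest library at days 0, 3, 5 and 7 in all 5 panels, and BK007102.1 alone has no fall towards juveniles.

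These records also followed the main difference between replicates. When each trunk library was expressed as its difference from its group mean in log2 CPM, 1 principal component carried 43.1% of the variance over these 12 libraries, with day 0, day 3 and day 7 replicate 3 at one end (72.5, 70.0 and 67.3) and day 7 replicate 2 at the other (-73.0). The deviations of BK007100.1, BK007101.1, BK007103.1 and BK007034.1 correlated with it at r = 0.976, 0.975, 0.968 and 0.939. In all, 7 of the 42 tested BK records (16.7%) and 7.49% of all tested records reached 0.8; the other 3 were BK007030.1, BK007102.1 and BK007008.1. These values describe 12 libraries that share their groups and from which the component itself was computed, and what the libraries at its ends have in common was not tested.

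BK007034.1 was the steepest record of the run of 37 among those lower at day 7. It was at 5.5, 4.77 and 10.3 CPM at day 0, 2.43, 2.18 and 5.68 CPM at day 3, 2.4, 2.96 and 3.72 CPM at day 5, 1.23, 0.955 and 1.82 CPM at day 7, and 1.58, 1.61 and 1.87 CPM in juveniles. Day 0 did not overlap day 5, day 7 or juveniles, and day 7 overlapped juveniles. Its log2 fold change was -2.36 for day 7 (SE 0.42, edgeR adjusted p = 0.0029) and -2.03 for juveniles (SE 0.42, edgeR adjusted p = 0.0033), and both calls held whichever library was left out. Without the 3 libraries that stood apart these were -1.75 and -1.62, and both passed. Day 7 and juveniles differed by -0.33 (SE 0.43, edgeR adjusted p = 0.74).

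Relative to day 0, edgeR called 0 of 42 BK records higher and 0 lower at day 3, where 3.02% of all tested records were called higher and 5.48% lower. At an unadjusted p under 0.05 there were 4 higher and 3 lower, and DESeq2 called 0. The median log2 fold change was 0.01, against 0 over all tested records. Same-numbered libraries of days 0 and 3 deviated together, and with the replicate number as a block 2 records were called, both lower: BK007034.1 (log2 fold change -1.03, edgeR adjusted p = 0.0019) and BK007102.1 (-0.55, edgeR adjusted p = 0.025). In that fit 15.5% of all tested records were called, so 2 of 42 is below the background. The block covered all 5 groups, although only days 0 and 3 deviated together for every replicate number. The same 2 were called without day 3 replicate 3 and without the 3 libraries that stood apart, where BK007034.1 had a log2 fold change of -1.15 (edgeR adjusted p = 0.0015); these fits called 10.9% and 11.9% of all tested records. Without day 0 replicate 3 its value was -0.58 (edgeR adjusted p = 0.48).

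At day 5, 0 BK records were called higher (3.23% of all tested) and 1 lower (5.64% of all tested). At an unadjusted p under 0.05 there were 0 higher and 5 lower, and DESeq2 called 0 higher and 3 lower. The 1 was BK007012.1, which was at 4.44, 4.49 and 3.96 CPM at day 0, 3.56, 3.88 and 3.71 CPM at day 3, 3.09, 2.53 and 3.04 CPM at day 5, 3.07, 2.62 and 2.46 CPM at day 7 and 2.17, 3.14 and 2.8 CPM in juveniles. Each later group lay below day 0 without overlap, and days 5 and 7 and juveniles overlapped one another. Its log2 fold change against day 0 was -0.57 at day 5 (SE 0.14, edgeR adjusted p = 0.018), -0.66 at day 7 (SE 0.14, edgeR adjusted p = 0.0042) and -0.66 in juveniles (SE 0.14, edgeR adjusted p = 0.0021). Only the day 5 call was lost when 1 library was left out, at an adjusted p of 0.06 without day 0 replicate 2 and 0.09 without day 5 replicate 2.

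Day 7 fragments differed from day 0 in 13 BK records. Of the 42, 5 were higher (11.9%, against 7.87% of all tested records) and 8 lower (19%, against 16.0%). The median log2 fold change was 0.04, as over all tested records (0.04). Those higher were BK007032.1, BK007008.1, BK007025.1, BK007027.1 and BK007042.1, with log2 fold changes of 1.52, 0.58, 0.4, 0.39 and 0.3. Those lower were the 3 steep records of the last run, BK007034.1, BK007007.1, BK007012.1, BK007031.1 and BK007040.1, the last 2 at -0.49 and -0.45. These shares lie near the background. Only 5 of the 13 were called whichever library was left out: BK007007.1, BK007012.1, BK007025.1, BK007027.1 and BK007034.1. Leaving out day 0 replicate 3 or day 7 replicate 1 left 8 calls, and there were 6 when only days 0 and 7 were fitted. The share of all tested records called fell alongside, from 23.9% to 13.9%, 13.2% and 12.5%.

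BK007027.1 had its highest levels at day 7. It was at 9.31, 10.7 and 10.4 CPM at day 0, 9.77, 10.5 and 12.1 CPM at day 3, 12, 10.6 and 11.2 CPM at day 5, 13.7, 13.6 and 12.7 CPM at day 7 and 9.25, 9.39 and 8.93 CPM in juveniles. The 3 day 7 libraries lay above all the others. It was 1.31-fold higher at day 7 than at day 0 (SE 0.09 in log2 units, edgeR adjusted p = 0.006) and 1.45-fold higher than in juveniles (SE 0.09, edgeR adjusted p = 0.00094), while juveniles and day 0 differed by -0.14 on the log2 scale and did not pass (edgeR adjusted p = 0.27). BK007025.1 was at 5.44 ± 0.26 CPM at day 0 and 7.2 ± 0.501 CPM at day 7 (SD, n = 3), a rise of 0.4 in log2 units (SE 0.1, edgeR adjusted p = 0.0087), and the juvenile level of 6.49 ± 0.401 CPM passed the test against neither (edgeR adjusted p = 0.064 against day 0 and 0.42 against day 7).

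Between the later days no BK record was called. From day 3 to day 5 edgeR called 0 higher and 0 lower of 42, against 0.0171% and 0.00214% of all tested records, with 0 higher and 2 lower at an unadjusted p under 0.05 and 0 by DESeq2. From day 5 to day 7 it called 0 higher and 0 lower, against 0.280% and 0.520%, with 7 higher and 5 lower unadjusted and 0 by DESeq2. From day 3 to day 7 it called 0 higher and 0 lower, against 0.424% and 0.787%, with 5 higher and 8 lower unadjusted. In this last comparison DESeq2 called 1 higher, BK007027.1, and 2 lower, BK007012.1 and BK007034.1. A call at day 7 against day 0 without one at day 3 or day 5 therefore does not show that the step came after day 5.

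In juveniles relative to day 0, 22 BK records were called: 14 of 42 (33.3%) were higher, against 12.1% of all tested records, and 8 (19%) were lower, against 19.0%. Among the 471 tested records with identifiers of other kinds (neither BK nor GDAG), 27.4% were higher and 28.0% lower. The medians of abundance and of replicate SD also differed between BK records and all records, as given above, and the part of this in the share called was not tested. The median log2 fold change was 0.15 for BK records and 0.06 over all tested records. All 14 higher records belonged to the run of 37, of which 36 were tested and 4 were lower. Only BK007032.1, BK007011.1 and BK007022.1 were higher by more than 1 on the log2 scale (2.82, 1.93 and 1.02), and the other 11 lay between 0.24 (BK007035.1) and 0.82 (BK007009.1). Of the 22 calls, 16 held whichever library was left out; BK007011.1, with 83 counts in all, was lost without day 0 replicate 3 (adjusted p = 0.086).

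**Figure D4:**
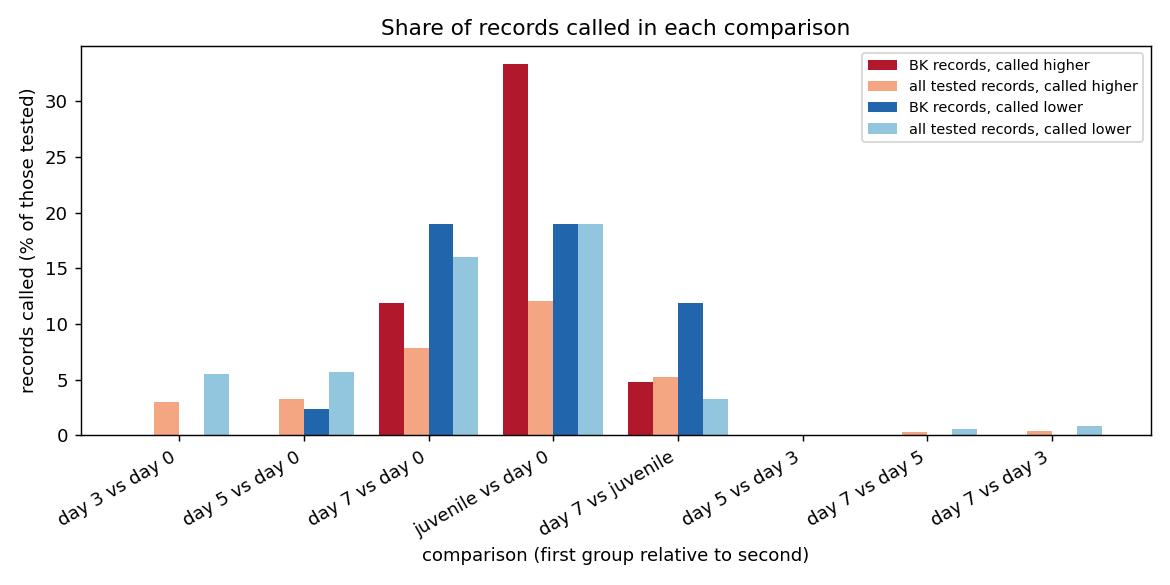
Share of the 42 tested BK records and of all 46736 tested records called higher or lower by edgeR in each pairwise comparison, in percent, the first group relative to the second. The tallest bar is the 33.3% of BK records called higher in juveniles than at day 0, beside 12.1% of all tested records.

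BK007032.1 was the record with the largest rise in juveniles. It was scarce in trunks, at 0.159, 0.256 and 0.065 CPM at day 0, 0.253, 0.0808 and 0.24 CPM at day 3, and 0.159, 0.187 and 0.192 CPM at day 5. At day 7 it was at 0.418, 0.533 and 0.446 CPM, and in juveniles at 0.981, 1.46 and 0.967 CPM, so that both groups lay above all earlier libraries and did not overlap each other. These levels rest on few reads: the day 0 libraries had 2 to 8 counts each, those of day 7 had 20 to 24, and the juvenile ones 28 to 59. It was 7.04-fold higher in juveniles than at day 0 (SE 0.39 in log2 units, edgeR adjusted p = 4.8e-05) and 2.86-fold higher at day 7 than at day 0 (SE 0.43, edgeR adjusted p = 0.017). The day 7 call was lost without day 0 replicate 3, where the library had 2 counts (log2 fold change 1.08, edgeR adjusted p = 0.11), and without the 3 libraries that stood apart (0.96, edgeR adjusted p = 0.21). Day 7 was 2.46-fold below juveniles (edgeR adjusted p = 0.008), a call lost without juvenile replicate 2 (adjusted p = 0.075).

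BK007043.1, the most abundant record of the run of 37, was level in trunks and higher in juveniles. It was at 63.7, 61.4 and 69.1 CPM at day 0, 60.7, 62.2 and 71.6 CPM at day 3, 67.4, 62.8 and 68.9 CPM at day 5, 67.8, 61.8 and 57.8 CPM at day 7, and 90.8, 91.3 and 87.8 CPM in juveniles. The 4 trunk groups overlapped, and all juvenile libraries lay above them. Juveniles were 1.39-fold above day 0 (SE 0.07 in log2 units, edgeR adjusted p = 0.00011) and 1.44-fold above day 7 (SE 0.07, edgeR adjusted p = 0.00013). BK007036.1 had the same order at a lower level: 3.98 ± 0.229 CPM at day 0, 3.44 ± 0.808 CPM at day 7 and 6.7 ± 0.899 CPM in juveniles (SD, n = 3), 1.95-fold more than at day 7 (edgeR adjusted p = 0.00094).

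BK007007.1 was lowest in juveniles. It was at 6.66, 8.27 and 4.91 CPM at day 0, 5.78, 5.79 and 4.19 CPM at day 3, 4.99, 4.1 and 4.68 CPM at day 5, 4.47, 3.49 and 3.01 CPM at day 7, and 1.47, 1.76 and 1.55 CPM in juveniles. Neighbouring trunk groups overlapped, and juveniles lay below every trunk library. Against day 0 it changed by -0.85 in log2 units at day 7 (SE 0.19, edgeR adjusted p = 0.0046) and by -2.05 in juveniles (SE 0.2, edgeR adjusted p = 1.4e-06), the smallest adjusted p of any BK record in the 8 comparisons, and these calls held whichever library was left out. BK006295.1 was lower in juveniles as well, at -0.54 on the log2 scale (edgeR adjusted p = 0.022), as was BK007017.1 at -0.56 (edgeR adjusted p = 0.005).

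**Figure D5:**
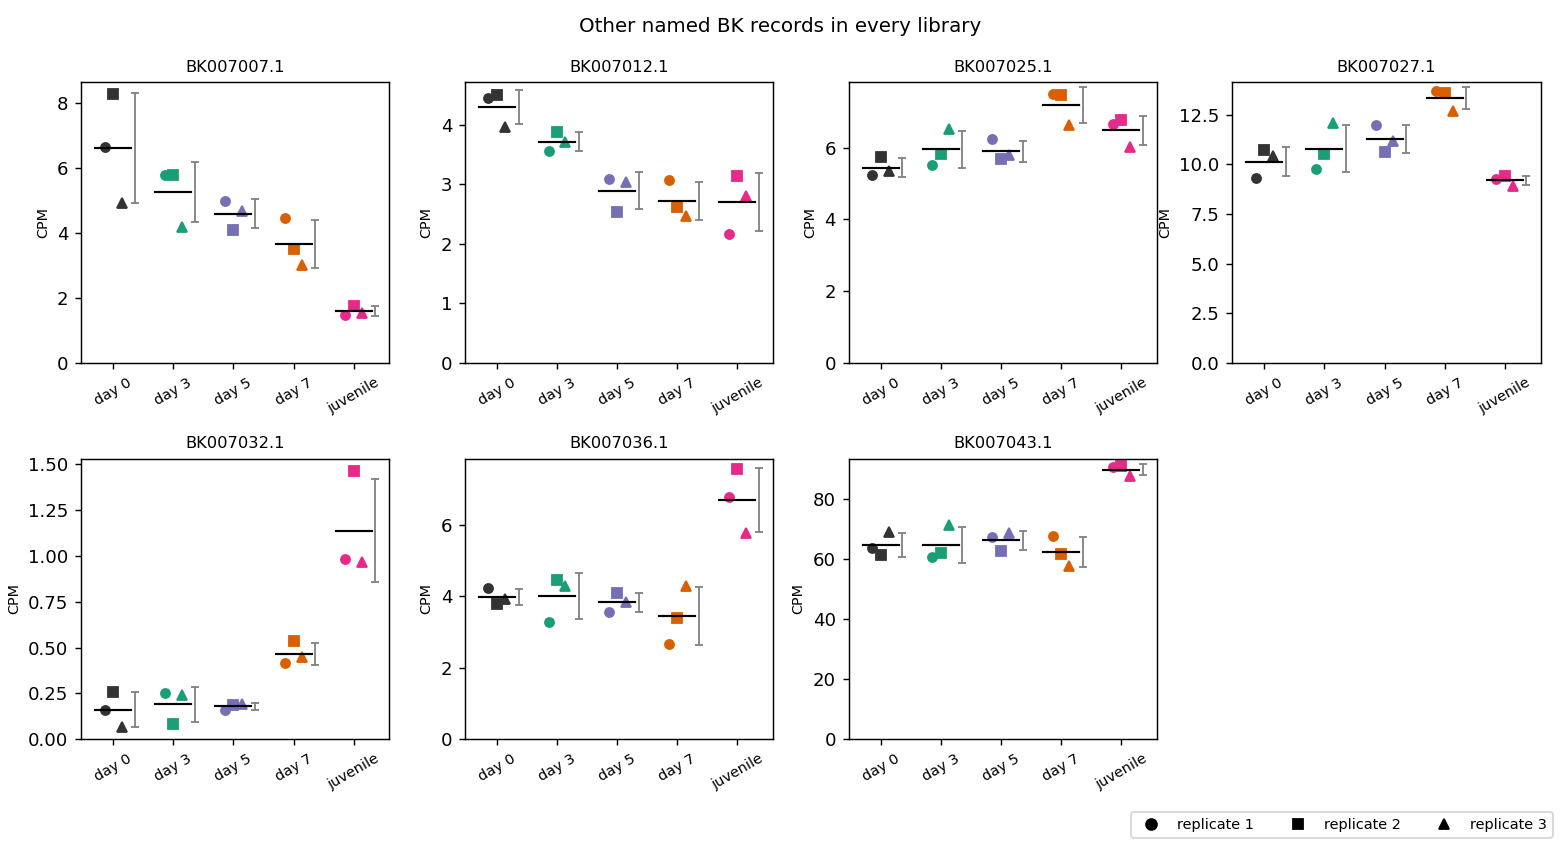
CPM of 7 further BK records in every library, on linear axes from 0. Points are libraries, shaped by replicate number, black lines group means and grey bars 1 SD (n = 3); BK007043.1 and BK007036.1 are high in juveniles alone, and BK007027.1 peaks at day 7.

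Day 7 fragments and juveniles, differed in 7 BK records. At day 7, 2 were higher than in juveniles (4.76%, against 5.21% of all tested records), BK007007.1 by 1.19 and BK007027.1 by 0.53 on the log2 scale, and 5 were lower (11.9%, against 3.21%): BK007032.1, BK007036.1, BK007022.1, BK007043.1 and BK007023.1, with log2 fold changes of -1.3, -0.96, -0.67, -0.53 and -0.45. Of the tested records with identifiers of other kinds, 9.34% were higher and 11.5% lower, so the share of lower BK records is close to theirs. The median log2 fold change was -0.19 for BK records and 0 over all tested records. The 3 steep records were 1.97, 2.74 and 3.3 higher at day 7 on the log2 scale (BK007100.1, BK007101.1 and BK007103.1) and did not pass (edgeR adjusted p = 0.22, 0.12 and 0.087). DESeq2 called all 3 (DESeq2 adjusted p = 0.037, 0.0033 and 0.00044). Without the 3 libraries that stood apart all 3 passed (edgeR adjusted p = 0.0094, 0.0052 and 0.0042). In that fit 11 BK records were called, with 12.4% of all tested records called in place of 8.42%. It drops day 7 replicate 2, the lowest day 7 library of all 3 records (11.5, 5.07 and 3.73 CPM). For BK007100.1 and BK007101.1 this library overlapped juveniles, so the pass is not separate support. Over the 8 pairwise comparisons 15 of the 42 tested records were called in none, 14 in 1, 10 in 2 and 3 in 3, the last being BK007007.1, BK007012.1 and BK007032.1; these comparisons share libraries.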

How the data were processed

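The authors deposited 1 table of raw counts per sequence record, taken as raw because they are whole and their sums differ by library. Bowtie2 is named in the submitters' processing notes. The sources used here do not give its version, the reference sequences, the counter or filters. TRIzol extraction and the TruSeq RNA kit are stated per the labels' protocols.

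Records were filtered with filterByExpr (minimum count 10, minimum total count 15), scaled with TMM factors, and compared in edgeR 4.0.16 (R 4.3.3; robust quasi-likelihood F test, group as the only term, 10 residual degrees of freedom), with Benjamini-Hochberg adjustment over 46736 records. SE is the log2 fold change divided by the square root of F. DESeq2 1.42.0 was an alternative. CPM use the scaled library sizes, and log2 CPM a prior count of 2. Records within 10% of a BK record's count were sought among the records outside the BK set.

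Groups came from sample titles. Members, tests and alternatives were chosen with earlier results of these data known. Named records were the 2 higher and 2 lower with the smallest adjusted p per comparison, the 3 most abundant, the 2 with the smallest p in the F test and the 2 with the largest replicate spread; others named complete a short count or an accession run, or were chosen after their values were seen. The titles number replicates alike in every group without saying that numbers pair libraries. Days 0 and 3 alone had a correlation of deviations over 0.1 for each number (r = 0.24, 0.17 and 0.51), so the fit with replicate block is given there. Its block covered all 15 libraries, not days 0 and 3 alone.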

Additional observations from a re-analysis of the deposited data

How the results depend on the processing

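Scaling by DESeq2 size factors, counting identical rows once and dropping the low-count filter left each count of called BK records within 1.5 times its value, except that DESeq2 size factors gave 2 calls in place of 1 at day 5 against day 0. DESeq2 itself called 3 in that comparison and 12 in place of 7 for day 7 against juveniles. For day 7 against day 3 it called 3 in place of 0. Its likelihood ratio test over the trunk groups called 10, where the F test of edgeR called 6. With the replicate block the counts were 2 in place of 0 at day 3 and 3 in place of 1 at day 5 against day 0, 3 in place of 0 from day 5 to day 7 and 1 in place of 0 from day 3 to day 7, and within 1.5 times elsewhere; where numbers were not shown to pair libraries, these say nothing of the effect. Fitting only the groups compared gave 0 at day 5 and 6 in place of 13 at day 7 against day 0, 13 for day 7 against juveniles and 1 from day 5 to day 7. Without the 3 libraries that stood apart, an alternative chosen after the data were seen, the counts were 2, 3 and 11 at day 3 against day 0, day 5 against day 0 and day 7 against juveniles, and 1 each from day 3 to day 5 and from day 5 to day 7. Leaving out 1 library at a time gave 0 to 2 calls at day 3, 0 to 2 at day 5 and 8 to 15 at day 7 against day 0, 18 to 22 for juveniles against day 0, 5 to 8 for day 7 against juveniles and 1 to 8 in the F test. The cause of these differences was not tested. The number of abundant BK records with another record within the tolerance in every library was 8 at 5% and 12 at 20%, in place of 10. A match in level at 20% need not be a copy. It takes in BK007013.1 and BK007015.1, whose most similar courses outside the BK set had r = 0.826 and 0.901. How often other records have such a match was not counted. No fold change of a named record that passed the test changed direction. Depth limits the scarce records most: BK007011.1, BK007019.1, BK007020.1, BK007021.1 and BK007032.1 had 83 to 248 counts over all 15 libraries.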

Other observations

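BK007015.1 and BK007042.1 both had GDAG01006494.1 as the record outside the BK set with the most similar course over the 15 libraries (r = 0.901 and 1). The count of that record was 0.999 to 1 times that of BK007042.1 in every library and 1.23 to 1.49 times that of BK007015.1. The files do not say how the 3 are related. BK007019.1, the 1 BK record that was not tested, had 1 to 11 counts per library, with means of 0.104 CPM at day 0 and 0.248 CPM in juveniles.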
